A study of Mus musculus with 6 samples.

Results

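Interferon-stimulated genes are the genes that cells switch on when interferon reaches its receptor. A list of 43 such genes was chosen by name as interferon targets, with earlier results of these data known. It was followed in the RNA of fetal liver progenitors of wt embryos and of embryos deficient in hnRNP L, an RNA-binding protein of the hnRNP family. All 43 were found by symbol among the 38293 genes of the deposited count table. RNA-seq libraries came from 3 wt embryos and 3 hnRNP L deficient embryos (VavCre+hnRNP L fl/fl, labelled hnRNPL Knock-Out), all of the C57BL/6 strain at embryonic day 14.5, with 1 library per embryo. The labels name whole embryo as the tissue and fetal liver cells as the source, while the methods of the study give sorted Lin-cKit+ cells of the fetal liver (FL). The Vav promoter drives Cre in blood cells, so the deletion is confined neither to stem cells nor to a single lineage. The labels of the wt embryos do not give their floxed or Cre alleles. The study reports a raised mark of DNA breaks (γH2AX, by flow cytometry) in hnRNP L deficient Lin-Sca1+cKit+ cells. DNA damage was not measured in the libraries used here. The comparison asks whether an interferon response was seen in the deficient cells beside such reported damage, or whether the constitutive expression of these genes was lower.

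In the classical pathway type I interferon binds the receptor made of IFNAR1 and IFNAR2, and the kinases JAK1 and TYK2 become active. Signalling leads to the complex ISGF3, which contains STAT2 and IRF9 and binds a DNA element called the interferon-stimulated response element (ISRE). Interferon gamma acts through IFNGR1, IFNGR2, JAK1 and JAK2 on a DNA element called the gamma-activated site (GAS), and in part through IRF1. DNA in the cytosol, as can follow DNA damage, is sensed by cGAS, which signals through STING to IRF3 and interferon beta. Uninfected cells also hold low levels of many of these transcripts, and blood stem cells are known to respond to interferon.

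The ISRE and GAS are written in the promoters of these genes, and short windows are shown for members that represent each outcome described below. The core searched was GAAA, any 2 bases, GAAA for the ISRE and TTC, any 3 bases, GAA for the GAS, each on both strands, where the GAS core reads the same on either strand. RefSeq promoters (GRCm38.p6, 250 bases before to 50 bases after the annotated start) were matched for 34 of the 43 members, and those of *Dhx58*, *Ifi204*, *Ifi27*, *Mx1*, *Mx2*, *Oas2*, *Rtp4*, *Usp18* and *Zbp1* were not used here. Capitals mark the matched core, and the 5′ to 3′ direction is that of the gene. The first 5 lines show ISRE matches of genes with lower expression in hnRNP L deficient cells, at chr8:46739495-46739533 (plus strand) for *Irf2*, chr1:173942498-173942547 (minus strand) for *Ifi203*, chr7:141010696-141010762 (minus strand) for *Ifitm3*, chr11:48871415-48871470 (minus strand) for *Irgm1* and chr3:142620584-142620633 (plus strand) for *Gbp2*. The next lines show ISRE matches of genes that did not pass the test, at chr4:156200855-156200916 (minus strand) for *Isg15* and chr2:62646206-62646243 (minus strand) for *Ifih1*. The last lines show GAS matches, at chr11:53769904-53769952 for *Irf1* and chr17:34198078-34198126 for *Psmb8*, which were lower, and at chr11:101448399-101448447 for *Ifi35*, which was higher, all on the plus strand.
Irf2 ISRE: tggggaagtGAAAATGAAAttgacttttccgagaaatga
Ifi203 ISRE: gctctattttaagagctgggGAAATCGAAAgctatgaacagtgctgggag
Ifitm3 ISRE: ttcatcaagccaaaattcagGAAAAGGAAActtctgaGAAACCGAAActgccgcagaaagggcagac
Irgm1 ISRE: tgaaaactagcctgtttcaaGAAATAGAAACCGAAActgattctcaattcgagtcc
Gbp2 ISRE: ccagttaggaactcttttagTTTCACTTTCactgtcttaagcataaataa
Isg15 ISRE: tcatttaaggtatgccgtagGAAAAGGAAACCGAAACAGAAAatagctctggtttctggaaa
Ifih1 ISRE: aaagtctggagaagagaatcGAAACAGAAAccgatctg
Irf1 GAS: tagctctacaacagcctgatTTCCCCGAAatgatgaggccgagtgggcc
Psmb8 GAS: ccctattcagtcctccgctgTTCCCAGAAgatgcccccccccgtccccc
Ifi35 GAS: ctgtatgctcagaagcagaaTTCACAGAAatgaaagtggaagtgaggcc

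Reads assigned to genes summed to between 55952160 and 76157226 per library, so that 3 reads equalled 0.0394 to 0.0536 CPM, the read count scaled to library size (counts-per-million). *Hnrnpl* was lower in every hnRNP L deficient library (242 to 288 CPM) than in the wt libraries (528 to 552 CPM). Its log2 fold change, hnRNP L deficient over wt, was -1.01, so that reads on the gene remained in the deficient libraries. The study allows that incompletely deleted cells, with some hnRNP L protein left, were part of its RNA-seq samples. This limits every comparison below. Wt replicate 2 stood apart. Its summed level of 8 granulocyte-monocyte precursor markers was 8093 CPM, against 583 and 1489 CPM in wt replicates 1 and 3 and 243 to 790 CPM in hnRNP L deficient libraries. Its 9 macrophage markers summed to 38.2 CPM, against 13.4 and 15.7 CPM in the other wt libraries and 4.69 to 9.47 CPM in hnRNP L deficient libraries. Not all of them followed this sum. Wt replicate 2 was the highest wt library in *Adgre1*, *C1qa*, *Cd68*, *Mrc1*, *Vcam1* and *Cd5l*, but not in *C1qb*, *C1qc* and *Marco*. *Vcam1* had 12.2 CPM there, against 1.87 and 1.69 CPM, while *C1qb* had 1.23 CPM, against 1.21 and 1.29 CPM. Markers of hematopoietic progenitors, which check the gate, were present in all libraries and summed to 408 to 918 CPM, mostly from *Kit*. By the test described below all 7 of them were lower in hnRNP L deficient cells, where 9.85% of all tested genes were. Their log2 fold changes ran from -0.62 for *Kit* to -2.21 for *Cd34* and -3.35 for *Flt3*. In such bulk libraries, fewer cells of a type and less RNA per cell cannot be told apart.

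Of the 43 genes, 35 had enough reads to be tested by edgeR's quasi-likelihood fit over 14396 genes. The threshold was an adjusted p of 0.05 over all of these. In hnRNP L deficient cells 11 of them were lower, where 9.85% of all tested genes were, and 1 was higher, where 9.32% of all tested genes were. The remaining 23 tested genes did not pass. The 11 lower genes were *Irf1*, *Irf2*, *Ifi203*, *Oas2*, *Mx1*, *Ifitm3*, *Ifi47*, *Irgm1*, *Gbp2*, *Psmb8* and *Psmb9*, and the higher one was *Ifi35*. In 8 of the 11 the fitted change was more than 2-fold. *Mx1* had enough reads only in wt libraries, so its call was favoured by the filter on low counts. The log2 fold changes of the 35 tested genes had a median of -0.66, against -0.03 over all tested genes, and 28 of the 35 were negative, as were 52.5% of all tested genes. In 25 of the tested genes all hnRNP L deficient values lay under the lowest wt value, where this was so for 22.7% of all tested genes. In 2 genes they lay over the highest wt value, the share over all tested genes also being 22.7%.

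The number of calls depended on which library was left out. Leaving out wt replicate 3 or hnRNP L deficient replicate 1, 2 or 3 left 0 of the genes past the threshold in edgeR. In these fits 24, 18, 16 and 17 of the genes had an unadjusted p below 0.05, and over all genes only 5, 17, 8 and 7 passed the threshold. Leaving out wt replicate 2, the library with the high myeloid markers, gave 13 lower genes and 1 higher gene, with 11 of the 12 calls kept. This fit also called more genes in all, 3527 of 14651, against 2759 of 14396 with every library kept. The call that was lost was *Oas2* (adjusted p = 0.056), and *Ifit2*, *Ifitm1* and *Usp18* were gained. Without wt replicate 1, 19 genes were lower and 1 was higher, in a fit that called 4791 of 14766 genes in all. In the plot of all 43 genes by library the wt columns differ among themselves, and 22 of the 35 tested genes had their highest value in wt replicate 2, as did 39.9% of all tested genes.

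**Figure D1:**
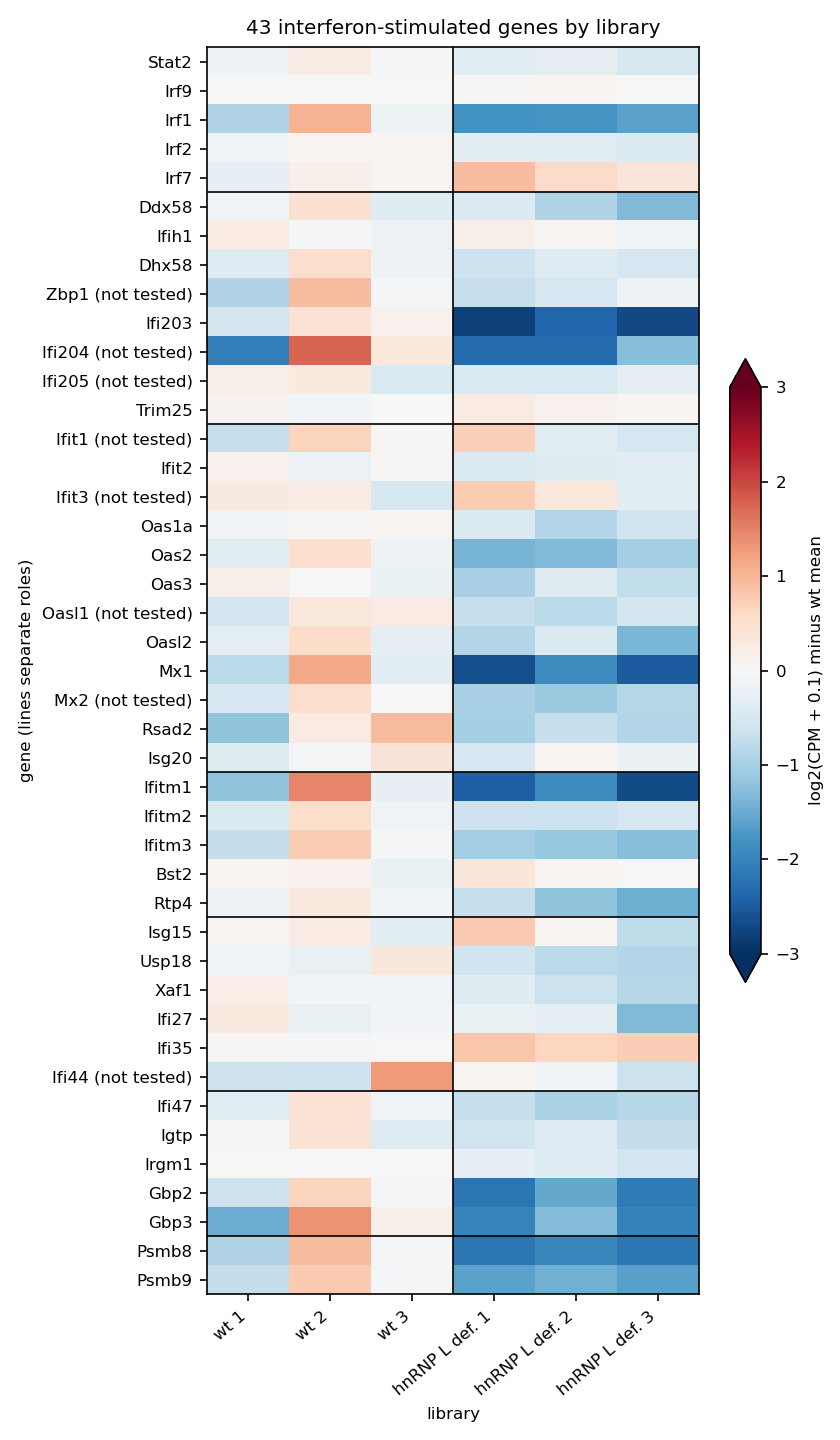
Expression of the 43 interferon-stimulated genes in each library (columns), as log2(CPM + 0.1) minus the mean of the 3 wt libraries, with genes grouped by role. Blue is below and red above the wt mean, and the blue blocks of *Ifi203*, *Gbp2*, *Psmb8* and *Psmb9* span all 3 hnRNP L deficient libraries while *Ifi35* and *Irf7* are red there.

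**Figure D2:**
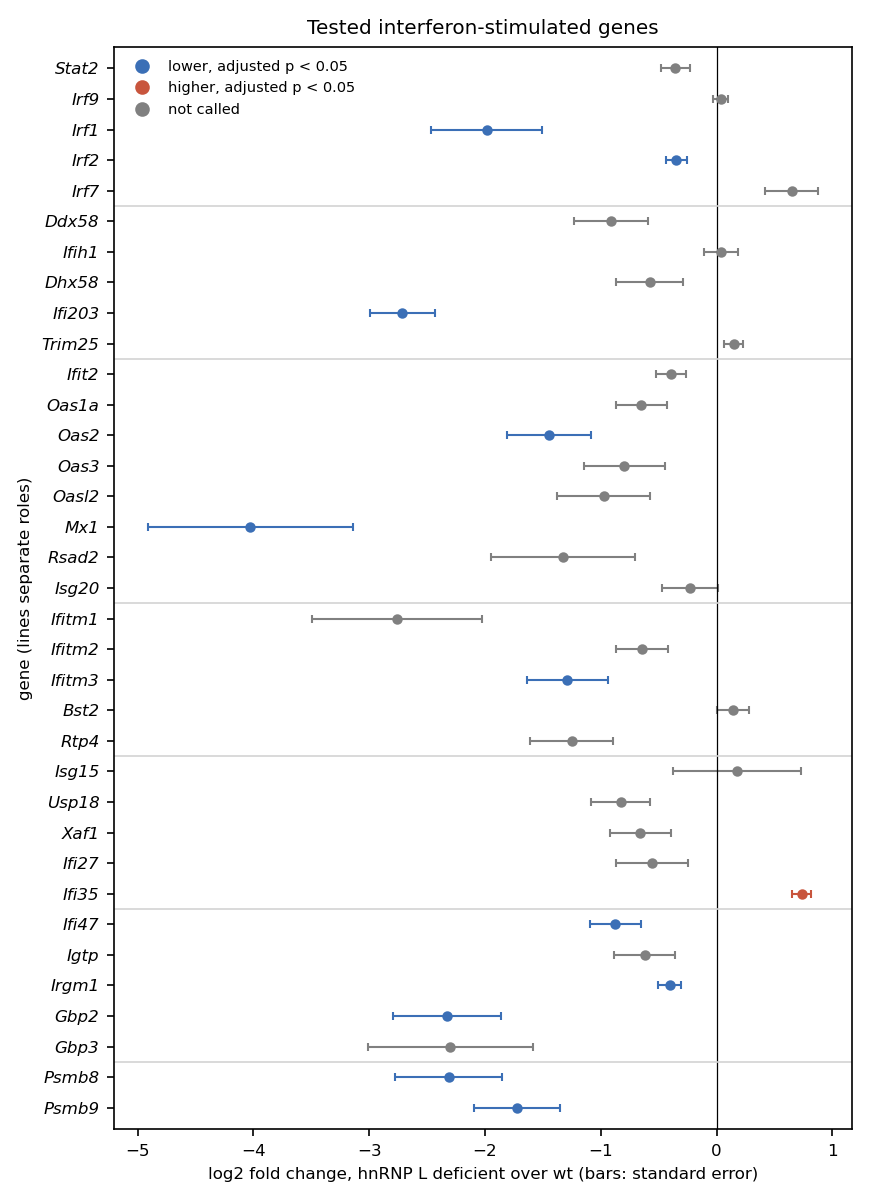
Log2 fold change of the 35 tested interferon-stimulated genes (points) with the standard error (bars), hnRNP L deficient over wt, grouped by role. The 11 lower genes lie between -4.03 and -0.35, and *Ifi35* at 0.73 is the only one past the threshold on the right.

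Among 5 signal transducers and transcription factors, 2 were lower, 0 were higher and 3 did not pass. In what follows, values of a group are given in the order of replicates 1 to 3, and ± after a log2 change is the standard error from edgeR. Gene positions are those of GENCODE vM21 on GRCm38. *Irf1* (ENSMUSG00000018899, chr11:53770014-53778374) encodes a transcription factor that carries interferon gamma signals to its target genes. It was measured at 5.91, 23.2 and 10.1 CPM in the wt embryos and at 3.09, 3.18 and 3.60 CPM in the hnRNP L deficient embryos. The deficient values were close to each other and all under the wt values, which spread widely. The log2 change was -1.99 ± 0.48 (adjusted p = 0.034) and became -1.28 without wt replicate 2 (adjusted p = 0.013). *Irf2* (ENSMUSG00000031627, chr8:46739732-46847458), the antagonist of IRF1 at shared sites, showed a tighter and smaller difference, with 34.6, 39.3 and 40.4 CPM in wt and 30.7, 30.4 and 28.8 CPM in hnRNP L deficient cells. This was a log2 change of -0.35 ± 0.09 (adjusted p = 0.038).

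Neither of the ISGF3 subunits on this list passed the test. *Stat2* had 26.2, 34.0 and 28.01 CPM in wt cells and 23.6, 24.3 and 21.0 CPM in hnRNP L deficient cells, without overlap (log2 change -0.36 ± 0.13, adjusted p = 0.084). *Irf9*, the DNA-binding subunit, stayed between 42.9 and 45.2 CPM in all 6 libraries. Its log2 change was 0.03 ± 0.07, and -0.04 when libraries were scaled by their totals. *Irf7*, which drives the interferon genes themselves and amplifies the response, had 2.30, 3.05 and 2.93 CPM in wt and 5.31, 4.13 and 3.56 CPM in hnRNP L deficient cells. All deficient values were above the wt values, but the log2 change of 0.65 ± 0.23 did not pass (adjusted p = 0.087).

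Of 8 nucleic acid sensors and their partners, 5 were tested and 1 was lower. *Ifi203* (ENSMUSG00000039997, chr1:173920407-173942672) belongs to the PYHIN family of DNA-binding proteins that interferon induces. It was measured at 13.4, 26.8 and 21.4 CPM in wt and at 2.73, 3.72 and 2.95 CPM in hnRNP L deficient cells, so that the deficient cells held 15.3% of the wt mean. The groups were far apart, and the log2 change of -2.71 ± 0.28 had the lowest adjusted p of the tested members (0.0099). Dropping any single library gave values from -2.94 to -2.47. *Ifi204* and *Ifi205*, of the same family, were not tested. *Ifi204* had 2, 109 and 44 reads in wt and 1, 1 and 10 reads in hnRNP L deficient libraries, while *Ifi205* had at most 4 reads in any library.

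The RIG-I-like receptors detect RNA in the cytosol, and none of their 3 genes passed the test. *Ddx58*, the gene of RIG-I, had 4.72, 6.94 and 3.94 CPM in wt and 3.70, 2.66 and 1.94 CPM in hnRNP L deficient cells (log2 change -0.91 ± 0.32, adjusted p = 0.083). *Dhx58*, the gene of the regulator LGP2, ranged from 2.38 to 4.55 CPM in wt and from 1.99 to 2.37 CPM in hnRNP L deficient cells (log2 change -0.58, adjusted p = 0.19). These 2 genes did not overlap between the groups. *Ifih1*, the gene of MDA5, did overlap, with 14.5 to 19.3 CPM in wt and 14.9 to 18.5 CPM in hnRNP L deficient cells, and its log2 change of 0.04 ± 0.15 was -0.03 when libraries were scaled by their totals. *Trim25*, whose product activates RIG-I by ubiquitination, was the member with the third highest level per length and overlapped between the groups (135 to 154 CPM against 151 to 170 CPM). *Zbp1*, a sensor of left-handed nucleic acids, had between 0 and 15 reads per library and was not tested.

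Of 12 antiviral effectors, 8 were tested, and *Oas2* and *Mx1* were lower. Oligoadenylate synthetases are antiviral enzymes that double-stranded RNA activates. *Oas2* (ENSMUSG00000032690, chr5:120730333-120749853) had 0.936, 1.77 and 1.07 CPM in wt and 0.404, 0.428 and 0.549 CPM in hnRNP L deficient cells. The groups were apart at this low level, with a log2 change of -1.45 ± 0.36 (adjusted p = 0.035). *Oas1a*, *Oas3* and *Oasl2* did not overlap between the groups either, with log2 changes of -0.65, -0.80 and -0.97, but their adjusted p values were 0.077, 0.14 and 0.12. *Oasl1* had between 7 and 24 reads per library and was not tested.

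*Mx1* (ENSMUSG00000000386, chr16:97447035-97462907) encodes a dynamin-like GTPase that blocks influenza virus, and most inbred laboratory strains are known to carry a defective allele. The libraries held 17, 89 and 34 reads on it in wt and 1, 6 and 2 reads in hnRNP L deficient cells, or 0.306, 1.48 and 0.468 CPM and 0.0155, 0.0918 and 0.0268 CPM. The deficient libraries were all under the wt libraries, and 2 of them lay at or under the level of 3 reads. The fitted log2 change of -4.03 ± 0.89 (adjusted p = 0.027) depends on the constant that the fit adds to such low counts, and was -3.08 without wt replicate 2 (adjusted p = 0.028). *Mx2*, its neighbour, had 8, 24 and 18 reads in wt and 5, 4 and 7 reads in hnRNP L deficient libraries and was not tested.

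The IFIT proteins bind viral RNA without the host's cap. *Ifit2* was the only one with many reads, at 13.7, 11.0 and 12.7 CPM in wt and 9.13, 9.58 and 9.73 CPM in hnRNP L deficient cells (log2 change -0.39 ± 0.13, adjusted p = 0.076). Its groups did not overlap, and wt replicate 2 had the lowest wt value here. Without that library the log2 change was -0.47 and the adjusted p was 0.027. *Ifit1*, with 26 reads in each group in sum, and *Ifit3*, with 8 reads in wt and 15 in hnRNP L deficient libraries, were not tested, and reads shared with near-identical copies would not be counted. *Rsad2*, the gene of viperin, had 0.216, 0.767 and 1.29 CPM in wt and 0.264, 0.352 and 0.295 CPM in hnRNP L deficient cells. This overlap went with a log2 change of -1.32 ± 0.62 (adjusted p = 0.17). *Isg20*, an exonuclease gene, also overlapped (5.62 to 9.40 CPM against 5.03 to 7.51 CPM).

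**Figure D3:**
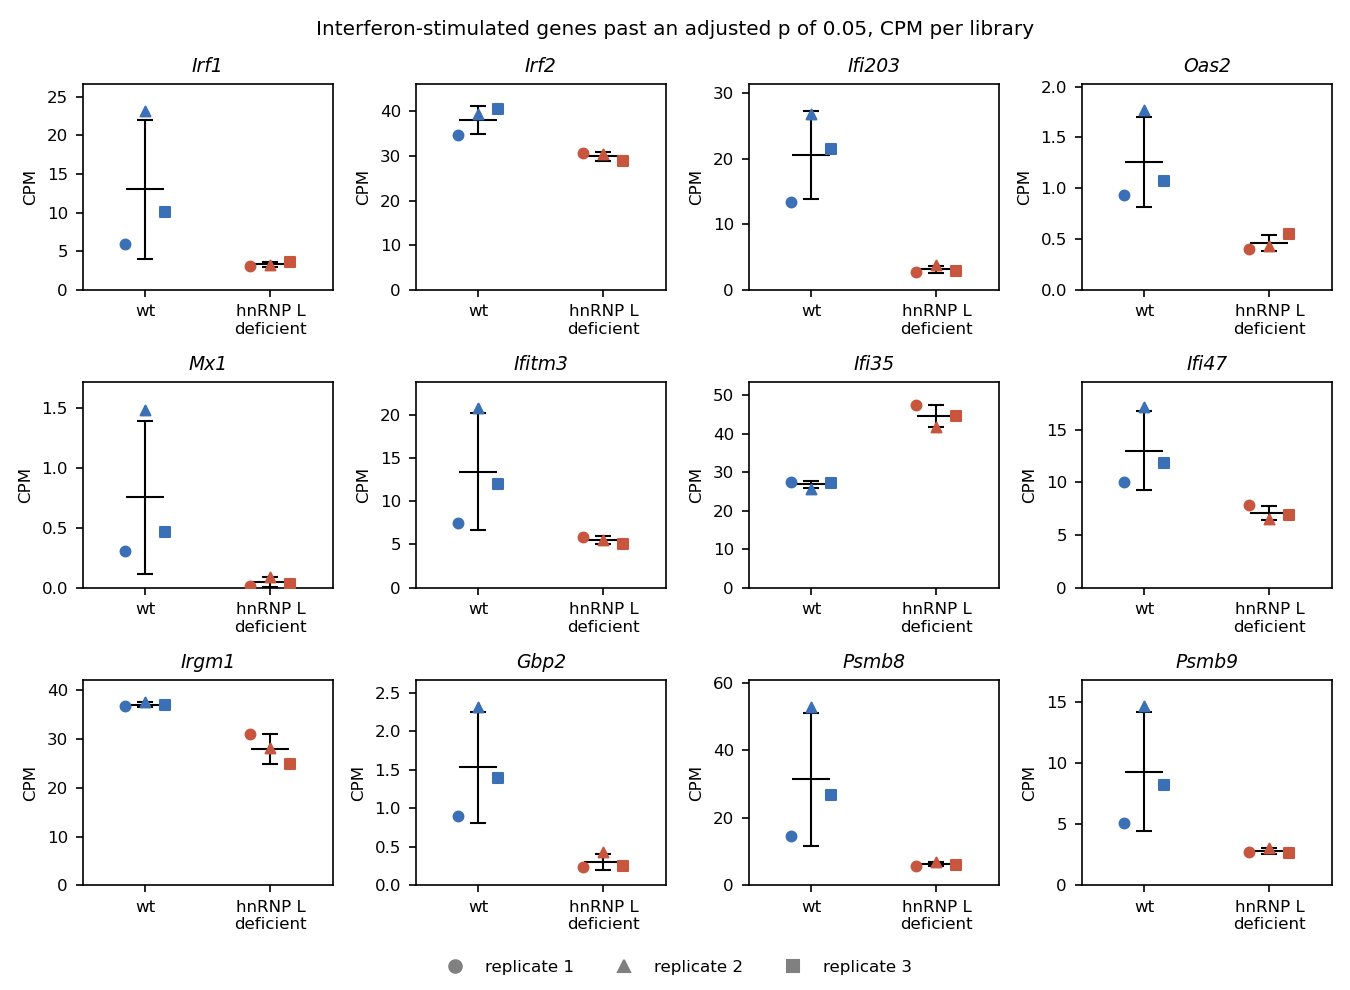
CPM per library (points, marker shape gives the replicate) of the 12 interferon-stimulated genes past an adjusted p of 0.05, with the mean (long dash) and SD (bars) of 3 libraries per group. Wt replicate 2 is the highest point in 10 of the 11 lower genes, *Irf2* being the other, and the groups do not overlap in any panel.

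The 5 membrane restriction factors include the members with the highest levels per length, counted as RPKM, the CPM per kilobase of exon. *Ifitm2* came first with means of 80.3 RPKM in wt and 51.4 RPKM in hnRNP L deficient cells, followed by *Bst2* with 27.9 and 30.8 RPKM. IFITM proteins stop viruses from fusing with cell membranes. *Ifitm3* (ENSMUSG00000025492, chr7:141009586-141010770) had 7.49, 20.8 and 11.9 CPM in wt and 5.90, 5.54 and 5.04 CPM in hnRNP L deficient cells, and was lower (log2 change -1.29 ± 0.35, adjusted p = 0.044, and -0.82 with adjusted p = 0.032 without wt replicate 2). *Ifitm1* had 9.27, 58.9 and 17.9 CPM in wt and 3.87, 5.62 and 3.27 CPM in hnRNP L deficient cells. Wt replicate 2 lay far above the other wt embryos, and the log2 change of -2.76 ± 0.73 narrowly missed the threshold (adjusted p = 0.052). Without wt replicate 2 it was -1.68 and passed (adjusted p = 0.013). *Ifitm2* did not pass (37.7, 72.8 and 47.2 CPM against 33.1, 32.2 and 35.6 CPM, log2 change -0.64, adjusted p = 0.088).

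*Bst2*, the gene of tetherin, which holds budding virus at the surface, overlapped between the groups, with 21.7 to 27.3 CPM in wt and 24.8 to 32.0 CPM in hnRNP L deficient cells. The log2 change was 0.14 ± 0.14 (adjusted p = 0.48). *Rtp4*, a gene first known as a chaperone of receptors, lay apart without passing. It had 1.03, 1.42 and 1.03 CPM in wt and 0.668, 0.444 and 0.348 CPM in hnRNP L deficient cells (log2 change -1.25 ± 0.36, adjusted p = 0.051).

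Among 6 genes of the ubiquitin-like modifier, its feedback and related proteins, *Ifi35* was higher, 4 did not pass and *Ifi44*, with 20 reads in wt replicate 3 and at most 4 in any other library, was not tested. *Ifi35* (ENSMUSG00000010358, chr11:101448407-101458698) encodes a leucine zipper protein that pairs with NMI. It had 27.5, 25.7 and 27.2 CPM in wt and 47.4, 41.9 and 44.6 CPM in hnRNP L deficient cells. Both groups were tight and far apart, with means of 26.8 ± 0.94 CPM (SD, n = 3) and 44.6 ± 2.78 CPM (SD, n = 3). The log2 change was 0.73 ± 0.08 (adjusted p = 0.010), and dropping any single library gave values from 0.69 to 0.80. *Nmi*, the gene of its partner, which is not one of the 43, was lower (log2 change -0.43, adjusted p = 0.047).

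*Isg15*, the ubiquitin-like modifier and among the most inducible genes of the response, was low in all libraries. It had 23, 29 and 21 reads in wt and 48, 27 and 14 reads in hnRNP L deficient libraries, or 0.289 to 0.484 CPM and 0.188 to 0.746 CPM. The deficient values fell on both sides of the wt values, and the log2 change of 0.18 ± 0.55 (adjusted p = 0.84) was -0.14 with limma-voom. *Usp18*, which removes ISG15 and dampens receptor signalling, had 2.21, 2.07 and 3.07 CPM in wt and 1.55, 1.33 and 1.26 CPM in hnRNP L deficient cells (log2 change -0.83 ± 0.25, adjusted p = 0.061). It passed without wt replicate 2 (adjusted p = 0.037). *Xaf1*, a gene linked to apoptosis, had 1.96, 1.60 and 1.56 CPM in wt and 1.29, 1.06 and 0.898 CPM in hnRNP L deficient cells, without overlap and without passing (adjusted p = 0.12). *Ifi27*, a small mitochondrial protein gene, ranged from 9.16 to 13.1 CPM in wt and from 4.18 to 9.13 CPM in hnRNP L deficient cells (adjusted p = 0.23).

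All 5 interferon-inducible GTPases were tested, and *Ifi47*, *Irgm1* and *Gbp2* were lower. Immunity-related GTPases and guanylate-binding proteins gather on the vacuoles of intracellular pathogens, and IRGM1 is also known to guard blood stem cells during interferon exposure. *Irgm1* (ENSMUSG00000046879, chr11:48861968-48871683) had 36.7, 37.6 and 36.9 CPM in wt and 31.0, 28.2 and 24.8 CPM in hnRNP L deficient cells. The wt values were nearly the same in all 3 embryos, wt replicate 2 included, and the log2 change was -0.40 ± 0.10 (adjusted p = 0.035). *Ifi47* (ENSMUSG00000078920, chr11:49076587-49096974) had 10.03, 17.2 and 11.9 CPM in wt and 7.86, 6.52 and 6.95 CPM in hnRNP L deficient cells, a log2 change of -0.87 ± 0.22 (adjusted p = 0.036). *Igtp* did not overlap but was not called (2.75 to 4.89 CPM against 2.18 to 2.74 CPM, adjusted p = 0.13).

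*Gbp2* (ENSMUSG00000028270, chr3:142620602-142638008) had 0.9002, 2.32 and 1.39 CPM in wt and 0.233, 0.428 and 0.254 CPM in hnRNP L deficient cells. The deficient cells held 19.9% of the wt mean, with a log2 change of -2.33 ± 0.46 (adjusted p = 0.022). *Gbp3*, its neighbour on chromosome 3, had a log2 change of -2.30 ± 0.71, but wt values of 0.810, 6.40 and 2.78 CPM overlapped the deficient values of 0.544, 0.949 and 0.536 CPM (adjusted p = 0.064). Without wt replicate 2 the log2 changes of *Gbp2* and *Gbp3* were -1.91 (adjusted p = 0.021) and -1.42 (adjusted p = 0.095).

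Both immunoproteasome subunits on the list were lower. *Psmb8* and *Psmb9* encode catalytic subunits that interferon gamma brings into the proteasome and lie close together in the MHC region of chromosome 17. *Psmb8* (ENSMUSG00000024338, chr17:34197721-34201454) had 14.5, 52.9 and 26.8 CPM in wt and 5.89, 7.04 and 6.03 CPM in hnRNP L deficient cells (log2 change -2.31 ± 0.46, adjusted p = 0.025). *Psmb9* (ENSMUSG00000096727, chr17:34181987-34187764) had 5.10, 14.7 and 8.18 CPM in wt and 2.70, 3.08 and 2.67 CPM in hnRNP L deficient cells (log2 change -1.73 ± 0.37, adjusted p = 0.026). In either gene the wt order was replicate 2, then 3, then 1, and all deficient values lay under it. Without wt replicate 2 the log2 changes were -1.71 and -1.24 and both passed. *Psmb10*, the remaining immunoproteasome subunit and not one of the 43, went the other way, with 49.8, 60.4 and 44.0 CPM in wt and 90.4, 81.5 and 88.1 CPM in hnRNP L deficient cells (log2 change 0.75 ± 0.12, adjusted p = 0.015). Of the constitutive subunits that they replace, *Psmb6* was higher (log2 change 0.30, adjusted p = 0.032), while *Psmb5* (0.25, adjusted p = 0.063) and *Psmb7* (0.28, adjusted p = 0.051) did not pass.

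The order of the wt libraries in 10 of the 11 lower genes was also that of their myeloid markers. In these 10 genes wt replicate 2 had the highest wt value. In all 11 the lowest wt value was that of wt replicate 1, which had the lowest sums of granulocyte-monocyte and macrophage markers among wt libraries, while wt replicate 1 was lowest of wt in 37.9% of all tested genes. *Irf2* was the exception for the highest value, and *Irgm1* differed by less than 1 CPM among the wt libraries. By the test 3 of 9 macrophage markers and 1 of 8 granulocyte-monocyte precursor markers were lower in hnRNP L deficient cells. Of 6 plasmacytoid dendritic cell markers 4 were tested and 3 were lower. Of 7 markers of B, T and NK cells 4 were tested and 0 were lower. Over all tested genes 9.85% were lower. All tested markers of these types had negative log2 changes, as did 52.5% of all tested genes. Those of the granulocyte-monocyte precursors lay between -3.73 and -2.13. The 6 plasmacytoid dendritic cell markers summed to 66.3, 108 and 77.1 CPM in wt libraries. In hnRNP L deficient libraries they summed to 43.4 to 45.9 CPM, with *Siglech* at 0. Most of the wt sums was *Tcf4*, at 54.3, 48.0 and 52.4 CPM, and *Irf8*, at 11.4, 55.9 and 23.4 CPM. The 7 markers of B, T and NK cells summed to 4.07, 52.8 and 9.17 CPM and to 2.86 to 6.09 CPM, with *Ncr1* at 0 throughout. Most of this was *Nkg7*, at 3.19, 49.8 and 7.71 CPM in wt. The 5 endothelial markers summed to 17.9, 46.5 and 22.8 CPM and to 7.56 to 8.98 CPM. Most of this sum was *Pecam1*, at 13.5, 43.3 and 18.6 CPM in wt, and it alone of the 5 was called lower. In *Cdh5* (0.990, 0.384 and 1.29 CPM) and *Stab2* (1.04, 0.650 and 1.22 CPM) wt replicate 2 was the lowest wt library. *Cdh5*, *Kdr* and *Lyve1* overlapped between the groups. The sums of the 7 erythroid markers overlapped between the groups, with 1200, 1218 and 1265 CPM and 1153 to 1534 CPM. Of these 1 was lower and 0 were higher by the test. The sums of the 5 megakaryocyte markers also overlapped, with 50.4, 84.8 and 62.7 CPM and 49.7 to 73.7 CPM, and 0 were called. The 6 hepatocyte markers summed to 159, 111 and 232 CPM and to 21.0 to 71.4 CPM, so that here wt replicate 2 was the lowest wt library. All 6 had their hnRNP L deficient values under the lowest wt value, as did 22.7% of all tested genes. By the test 2 of the 6 were lower, where 9.85% of all tested genes were. The part of these cell types, and of the hematopoietic progenitors above, in the lower values was not tested. Without wt replicate 2 the log2 changes of *Ifi35*, *Irf2* and *Irgm1* were 0.71, -0.32 and -0.39.

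The other genes of the pathway were followed with a list of 143 names, of which 135 were found and 95 were tested. Of these 25 were lower and 4 were higher, next to the shares of 9.85% and 9.32% over all tested genes. With wt replicate 2 left out 31 of 96 tested were lower and 4 higher, in the fit that called 3527 of 14651 genes in all. When wt replicate 3 or any of the hnRNP L deficient libraries was left out, 0 passed. Of 21 interferon ligand genes named in the list 17 were found, and none of these had enough reads to be tested. Over all 17, only *Ifnz* had any reads, with 5 in wt replicate 2 and 4 in wt replicate 3. In hnRNP L deficient libraries no read was counted on them, at a depth where 3 reads are 0.0394 to 0.0451 CPM. Reads shared between near-identical copies, as among the *Ifna* genes, were not counted. The missing reads therefore do not show that these transcripts were absent.

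All 6 receptor genes were tested, and 1 was lower. *Ifngr1*, the ligand-binding chain for interferon gamma, had 134, 232 and 177 CPM in wt and 101, 92.6 and 91.8 CPM in hnRNP L deficient cells (log2 change -0.93 ± 0.19, adjusted p = 0.023). *Ifnar2* (-0.37, adjusted p = 0.098) and *Ifngr2* (-0.48, adjusted p = 0.097) did not overlap between the groups but did not pass, and *Ifnar1* overlapped (-0.24, adjusted p = 0.27). Among kinases, *Jak2* was lower with 148, 138 and 158 CPM in wt and 115, 115 and 110 CPM in hnRNP L deficient cells (log2 change -0.39 ± 0.07, adjusted p = 0.021). *Jak1* (0.09) and *Tyk2* (-0.25) overlapped.

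The transcription factors *Irf5* and *Irf8*, which are expressed in myeloid and dendritic lineages, had larger differences. *Irf8* had 11.4, 55.9 and 23.4 CPM in wt and 2.03, 4.35 and 4.80 CPM in hnRNP L deficient cells (log2 change -3.02 ± 0.68, adjusted p = 0.034), and it is one of the plasmacytoid dendritic cell markers above. *Irf5* had 2.86, 15.3 and 6.06 CPM against 0.854, 1.64 and 1.14 CPM (log2 change -2.74 ± 0.63, adjusted p = 0.031). Without wt replicate 2 their log2 changes were -2.22 and -1.88. *Irf3*, which acts downstream of STING, was above in all hnRNP L deficient libraries, with 72.1 to 80.5 CPM in wt and 83.2 to 91.5 CPM (log2 change 0.17 ± 0.07, adjusted p = 0.15).

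In the route from cytosolic DNA to interferon, the transcript of the sensor was lower, while signalling through the route was not measured. *Cgas* had 13.5, 27.2 and 12.6 CPM in wt and 6.24, 6.58 and 7.50 CPM in hnRNP L deficient cells (log2 change -1.39 ± 0.31, adjusted p = 0.027), and -0.95 without wt replicate 2 (adjusted p = 0.0066). *Sting1* had 7.31, 37.0 and 12.8 CPM in wt and 3.11, 5.19 and 4.31 CPM in hnRNP L deficient cells, without overlap (log2 change -2.18 ± 0.62, adjusted p = 0.056), and without wt replicate 2 the log2 change was -1.26 and passed (adjusted p = 0.022). *Mndal*, a PYHIN gene next to *Ifi203*, was lower (log2 change -2.84 ± 0.42, adjusted p = 0.014), as was *Trim56* (-0.43, adjusted p = 0.044), whereas *Zcchc3*, a cofactor of cGAS, was higher (0.36 ± 0.06, adjusted p = 0.016). *Mavs*, the adaptor of the RNA sensors, overlapped (43.6 to 52.1 CPM against 46.2 to 50.5 CPM). *Trex1*, a nuclease that clears cytosolic DNA, is listed at 0 in all libraries. Reads that were ambiguous between genes were left out of the counts, so this 0 does not show that the transcript was absent.

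*Adar*, which edits double-stranded RNA and so keeps it from being sensed, had 83.2, 82.6 and 81.8 CPM in wt and 106, 97.6 and 96.3 CPM in hnRNP L deficient cells (log2 change 0.28 ± 0.07, adjusted p = 0.033). *Eif2ak2*, the gene of the kinase PKR, overlapped (57.1 to 68.1 CPM against 54.6 to 58.8 CPM). Of the negative regulators, *Pias1* was lower (-0.35, adjusted p = 0.023) and *Trim27* higher (0.32, adjusted p = 0.037).

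**Figure D4:**
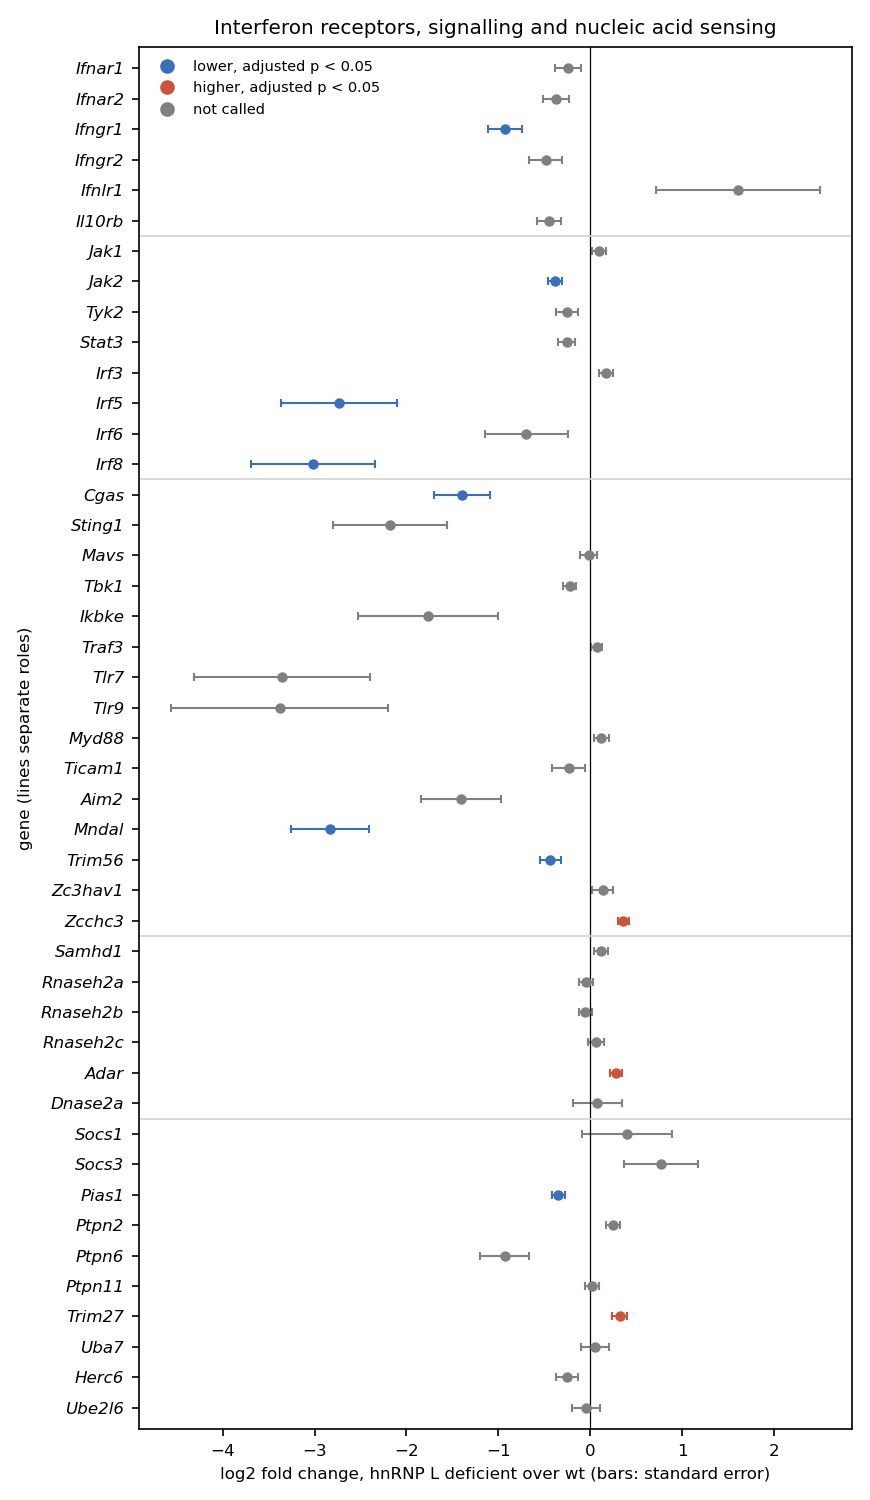
Log2 fold change (points) and standard error (bars) of receptor, signalling, sensing, nucleic acid removal and regulator genes of the interferon pathway, hnRNP L deficient over wt. *Ifngr1*, *Irf5*, *Irf8*, *Cgas* and *Mndal* are among the lower genes, *Zcchc3*, *Adar* and *Trim27* are higher, and most of the others lie near 0.

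Of 66 further interferon-stimulated genes found in the table, 48 were tested, 16 were lower and 1 (*Psmb10*) was higher. *Tnfsf10*, the gene of the death ligand TRAIL, had 3.42, 4.07 and 3.89 CPM in wt and 0.730, 0.796 and 0.683 CPM in hnRNP L deficient cells, tight in both groups (log2 change -2.36 ± 0.22, adjusted p = 0.0086). *Psme1* and *Psme2*, the subunits of the proteasome activator, were lower (-0.57 and -0.37, adjusted p = 0.030 and 0.034), as was the peptide transporter gene *Tap2* (-0.63, adjusted p = 0.023). *Ifitm7*, *Slfn8*, *Sp100*, *Sp110* and *Stat4* had log2 changes between -2.62 and -1.76. *Trim34a*, *Mlkl*, *Gbp7*, *Irgm2*, *Cmpk2*, *Nmi* and *Lgals9* completed the 16, with log2 changes between -1.25 and -0.38. Without wt replicate 2 the log2 changes of *Slfn8*, *Sp100*, *Sp110*, *Stat4* and *Mlkl* were -1.55, -1.44, -1.40, -1.23 and -0.75, and *Irgm2* lost its call (adjusted p = 0.054).

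The exon bins of the 43 genes were read as a separate measure in the 5 libraries that had such counts, 3 wt and hnRNP L deficient replicates 2 and 3. An exon bin is a stretch of exon, and its usage is its share of the reads of its gene. Of 664 bins 348 reached the minimum mean of 10 reads, and 0 changed in usage at an adjusted p of 0.05 in edgeR's diffSpliceDGE, where 0.0288% of all 176996 tested bins did. An unadjusted p under 0.05 was reached by 6 bins, where 1.02% of all tested bins did, and by 10 with limma's diffSplice, where 2.68% of all tested bins did, again with 0 after adjustment. The 6 bins lay in *Ddx58* (bins 9 and 10) and *Xaf1* (bins 7, 11, 14 and 15). Bin 9 of *Ddx58* had 4, 33 and 29 reads in wt and 0 and 1 reads in hnRNP L deficient libraries, and these low numbers limit what the bins can show.

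Returning to the promoters, the ISRE core was found in 19 of 34 matched members, or 55.9% (95% Wilson interval 39.5% to 71.1%), while 3.99% of 27025 genes in the same RefSeq table held it. Followed by C, as in the motif of the classical element, it was found in 35.3% of members and 0.944% of all genes. The GAS core was found in 10 members, or 29.4%, and in 9.55% of all genes. The interval covers counting only, and the members were named for their response to interferon. The matches of *Isg15*, 3 in a row, and of *Oas1a*, *Bst2* and *Irgm1* overlapped each other. The median differences with and without an ISRE match lay close together. Of 19 members with a match 16 were tested, 5 were lower and 0 were higher, with a median log2 change of -0.65. Of 15 members without a match in this window 13 were tested, 4 were lower and 1 was higher, with a median of -0.66.

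**Figure D5:**
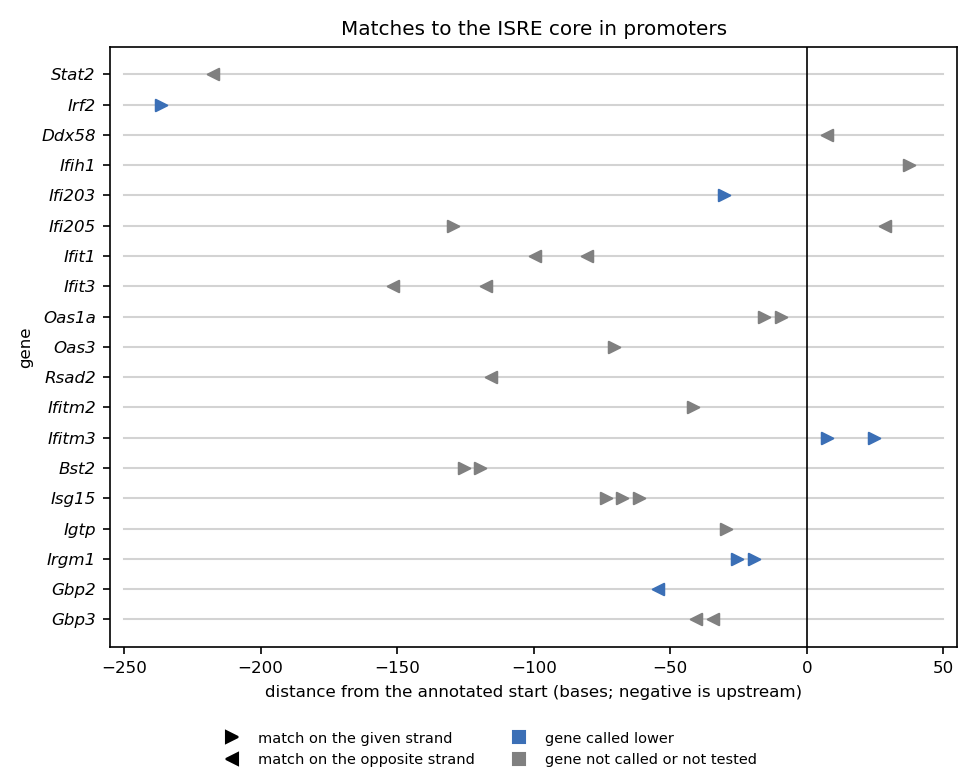
Position of each ISRE core match in the promoters of 19 interferon-stimulated genes, as distance in bases from the annotated start (0), with arrowheads for the strand and blue for the 5 genes lower in hnRNP L deficient cells. Matches of *Ifi203*, *Irgm1* and *Gbp2* lie within the 60 bases before the start, that of *Irf2* lies furthest upstream, and those of *Ifitm3* follow the start.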

How the data were processed

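Gene counts and exon bin counts of fetal liver cells were used as the authors deposited them. According to the study's methods, stranded mRNA libraries were aligned to GRCm38 with TopHat2 2.0.10, processed with SAMtools and counted with HTSeq. The Ensembl release, strand setting and version of the counting script are not given in the sources used here. Lines naming no gene held 46.7% to 53.3% of the counted reads and were left out. Reads aligned to several places were not counted, so genes with near-identical copies (*Ifit3*, *Oas1a*, the *Ifna* genes) are uncertain. The exon units of *Irf9*, *Igtp*, *Ifi47* and *Ifi203* also hold a neighbouring gene.

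Gene counts were filtered with filterByExpr (at least 0.150 CPM), scaled by TMM and tested with edgeR 4.0.16 (glmQLFit, robust) in R 4.3.3 on genotype alone, with Benjamini-Hochberg adjustment over all 14396 genes. Exon bins were tested with diffSpliceDGE. DESeq2 1.42.0 and limma 3.58.1 served as alternatives, beside other scalings, filters and each library left out. CPM use TMM-scaled library sizes, and RPKM divide them by exon length. Each group had 3 libraries, an exact two-sided permutation test of which cannot go below p = 0.1. The embryo numbers of wt replicate 1 and hnRNP L deficient replicate 1 begin alike, as do those of hnRNP L deficient replicates 2 and 3, and the labels do not say what this means. Genes were named if they passed, did not overlap between groups, were among the 10 highest in RPKM or had the largest changes. The members and lists were chosen with earlier results of these data known. The fit was tested on simulated data. Some genes of the pathway list enter its counts but are not reported here by name.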

Additional observations from a re-analysis of the deposited data

How the results depend on the processing

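The 12 calls among the 43 genes became 22 with DESeq2 and 21 with limma-voom and sample weights, and ranged from 0 to 20 with each library left out. Over all genes the 2759 calls became 4151 and 5288 under the same tools, and ranged from 5 to 4791. The 29 pathway calls became 47 and 51, and ranged from 0 to 51. Median-of-ratios factors, totals as scaling, no filter, a mean of at least 1 CPM and no robust estimation left between 10 and 15 of the 43 genes past the threshold. The share of members with the ISRE core, 55.9%, was 35.3% when a C had to follow and 35.3% on the given strand only. Directions reversed only in genes that had not passed: *Irf9* (-0.036 with totals as scaling), *Ifih1* (-0.029 with totals, and -0.043 to 0.17 with each library left out) and *Isg15* (-0.14 with limma-voom, and -0.39 to 0.56 with each library left out). Of the other single-gene values 357 kept direction and side of the threshold, 33 gained a call and 51 lost it. The cause of these shifts was not tested. No paired analysis was possible because only 1 wt and 1 hnRNP L deficient embryo have numbers that begin alike, which leaves a single possible pair across the groups.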
